A study of Mus musculus with 10 samples.

Results

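The AP-1 transcription factors of the FOS and JUN families were followed in mouse cortical cultures depolarised with KCl. The 7 genes are Fos, Fosb, Fosl1 and Fosl2 on the FOS side and Jun, Junb and Jund on the JUN side, and they were taken by name, with every Ensembl transcript that the count data list for them. Of these 7 genes, 6 were listed, each by 1 transcript, among 22534 transcripts of 13184 genes in all. Fosb was not analysed here. All 6 transcripts were among the 7258 measured ones, which reached an RPKM (reads scaled for the length and the library total) of 10 or more in both assays of at least 2 cultures. Fos, Jun, Junb and Jund reached this in all 5 cultures and Fosl2 in 4, of which 2 were untreated. Fosl1 reached it in the 2 KCl cultures alone, so its presence among the measured transcripts already depended on its level after KCl.

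FOS and JUN proteins carry a leucine zipper, pair with each other and bind DNA as dimers at the AP-1 site. JUN proteins can pair among themselves, whereas FOS proteins need a JUN partner. In neurons Fos, Fosb and Junb are classical immediate-early genes. Calcium that enters during depolarisation activates CREB and SRF at their promoters within minutes, and the mRNAs are short-lived. Jund, by contrast, is known as a broadly expressed member of the family.

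The cultures were mixed neurons and glia from the cortex of newborn FVB mice (no transgene named), kept 7 days in vitro. Cultures 1, 2 and 3 were untreated, and cultures 4 and 5 received 55 mM KCl for 3 h. All 5 received cycloheximide at 100 ug/ml for 7 min before lysis, which holds ribosomes on the mRNA, and each lysate gave 1 RNAseq library and 1 ribosome footprinting (RF) library. The whole-series totals were 3056286 to 3629959 reads in the RNAseq libraries and 1463654 to 7719915 in the RF libraries, of which untreated culture 3 was the shallowest. Nothing in the labels says that the 5 cultures came from separate litters, so the p-values measure the spread between these cultures only.

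Promoter and start codon sequences are shown because the members are compared below in how far their RNA rose and in how it was occupied by ribosomes. RefSeq promoter windows of GRCm38.p6, 250 bases before to 50 bases after the start, were matched for 6 genes (Fos, Fosb, Fosl2, Jun, Junb and Jund). They were searched on both strands for TGACG, the core of a CREB site, for the full palindrome TGACGTCA, for the AP-1 site TGANTCA and for TGACATCA, the variant known from the Jun promoter. TGACGTCA contains TGACG. The letters in capitals are the match, and each line gives 24 bases on the strand of the gene.

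Fos, 66 bases before the start, chr12:85473815-85473838, plus strand: tccgcccagTGACGtaggaagtcc
Fos, 129 bases before the start, chr12:85473752-85473775, plus strand: gcgtagagtTGACGacagagcgcc
Fosb, 60 bases before the start, chr7:19310091-19310114, minus strand: agttgcgggTGACGcaagcgcggg
Junb, 106 bases before the start, chr8:84978840-84978863, minus strand: tcctgacagTGACGcgagccgcct
Jun, 45 bases before the start, chr4:95052252-95052275, minus strand: cctcggggTGACATCAtgggctat

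TGACG was thus present in the windows of Fos, Fosb and Junb and is held by 20.81% of 32851 promoters of the same length. TGACATCA was present in Jun alone among the 6 and in 3.619% of all promoters. None of the 6 windows held TGACGTCA (1.79% of all) or TGANTCA (7.808% of all). The RefSeq start lies at 671 bases from the start of the counted transcript for Fosl2 and at -1210 bases for Jund (negative is upstream), so for these genes the window does not border the counted RNA.

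The start codons of the counted transcripts are shown next, since TE is compared between them below. Each line gives the 6 bases before the start codon, the codon in capitals and the base after it, from the GENCODE vM21 transcripts.

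Fos: tcgaccATGa
Fosl1: cagggcATGt
Fosl2: cggatcATGt
Jun: cgttctATGa
Junb: gcccggATGt
Jund: gtggggATGg

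A purine stood 3 bases before the ATG in 4 of the 6, namely Fos, Fosl1, Fosl2 and Jund, and in 85.5% of the 7258 measured transcripts. A G followed the ATG in Jund alone, and in 49.8% of measured transcripts. The 5′UTRs of Fos, Jun, Junb and Jund held no upstream ATG, as did 49.9% of measured transcripts, while Fosl2 held 1 and Fosl1 held 3. Jun has a 5′UTR of 951 bases and Fosl2 one of 903, longer than those of 98.9% and 98.7% of measured transcripts.

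The transcripts differ in build. Fos (chr12:85473890-85477273, plus strand), Fosl1 (chr19:5447547-5455946, plus strand) and Fosl2 (chr5:32135801-32157842, plus strand) have 4 exons each in GRCm38. Jun (chr4:95049034-95052222, minus strand), Junb (chr8:84976910-84978718, minus strand) and Jund (chr8:70698949-70700616, plus strand) are single-exon transcripts. AU-rich elements in the 3′UTR are known to mark short-lived mRNAs, and ATTTA is their core. ATTTA occurred 4.91 times per kb of 3′UTR in Fos, 4.12 in Junb and 3.24 in Jun, and 1.57 to 1.88 times in Fosl1, Fosl2 and Jund, against a median of 1.06 over measured transcripts. These rates rest on few sites: 4 each in Fos and Jun, 2 in Junb and 1 each in Fosl1 and Jund. Fosl2, with the longest 3′UTR of the members, held the most, 8. The longer element TTATTTATT (which contains ATTTA, and was searched on the mRNA strand) occurred in the 3′UTRs of Fos and Fosl2 alone among the members, and in 5.58% of measured transcripts. Both matches lie in exon 4, and they are shown with the element in capitals.

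Fos, chr12:85477106-85477129, plus strand: tttcaatTTATTTATTaagatgga
Fosl2, chr5:32156874-32156897, plus strand: tattttaTTATTTATTttaaatgt

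The question put to the RNAseq data was how far the abundance of each member changed after 3 h of KCl. Levels are given as normalized CPM, counts scaled to the library total and corrected by TMM factors, over all regions of the transcript. Between genes they are compared further below, per length. Fold changes, standard errors (SE) and adjusted p come from edgeR's quasi-likelihood test over all 7258 measured transcripts with Benjamini-Hochberg adjustment. Fosl2, which encodes FRA2, gave the highest rise: 79.4, 115 and 123 normalized CPM in the untreated cultures against 829 and 806 after KCl. No KCl value came near an untreated one. This was a 7.73-fold rise in RNAseq (log2 2.95, SE 0.14, edgeR adjusted p = 1.2e-19), and 21 of the measured transcripts rose more.

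Fos, the prototype of the family, measured 31.5, 42.9 and 38.0 normalized CPM in untreated cultures and 118 and 107 after KCl. The groups were far apart, with a 3.01-fold rise in RNAseq (log2 1.59, SE 0.18, edgeR adjusted p = 2.8e-09). Fosl1, which encodes FRA1, measured 22.2, 35.9 and 29.0 normalized CPM against 65.8 and 68.2. It rose 2.31-fold in RNAseq (log2 1.20, SE 0.20, edgeR adjusted p = 1.1e-05).

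Among the JUN genes, Junb, which pairs with FOS proteins and is an immediate-early gene in neurons, measured 40.5, 63.2 and 56.0 normalized CPM in untreated cultures and 101 and 116 after KCl. It rose 2.04-fold in RNAseq (log2 1.03, SE 0.18, edgeR adjusted p = 1.6e-05). Jun itself measured 167, 235 and 227 normalized CPM against 299 and 340. Both KCl cultures lay above every untreated culture, but by less than for the other members that rose, with a 1.53-fold rise (log2 0.61, SE 0.14, edgeR adjusted p = 0.00078). This separation depended on the region. On the 3′UTR the Jun RNAseq density (reads scaled for length and library total) was 60.95, 75.13 and 79.87 untreated and 111 and 117.3 after KCl. On the coding sequence alone it was 28.69, 43.16 and 39.07 against 35.05 and 49.61, so the groups overlapped. The Jun change on the coding sequence alone was not tested.

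Jund measured 70.1, 108 and 71.2 normalized CPM in untreated cultures and 74.8 and 103 after KCl. The groups overlapped, and its RNAseq change did not pass the test (log2 0.11, SE 0.18, edgeR adjusted p = 0.70). The sign of this value turned when untreated culture 1 was left out (log2 -0.008) or KCl culture 5 (log2 -0.15). In all, 5 of the 6 transcripts rose in RNAseq and none fell, whereas 33.0% of all measured transcripts were called, 17.9% higher and 15.1% lower. The 5 include Fosl1, which was measured through the KCl cultures alone. Over all regions, these 5 also had both KCl cultures above all untreated ones, as did 27.6% of measured transcripts. The median log2 fold change of the 6 was 1.12, or 1.03 over the 5 without Fosl1, beside -0.0044 over all measured transcripts. The 5 that rose were the same in every alternative analysis that kept both KCl cultures. None of these alternatives changed the regions on which RNAseq reads were counted.

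**Figure D1:**
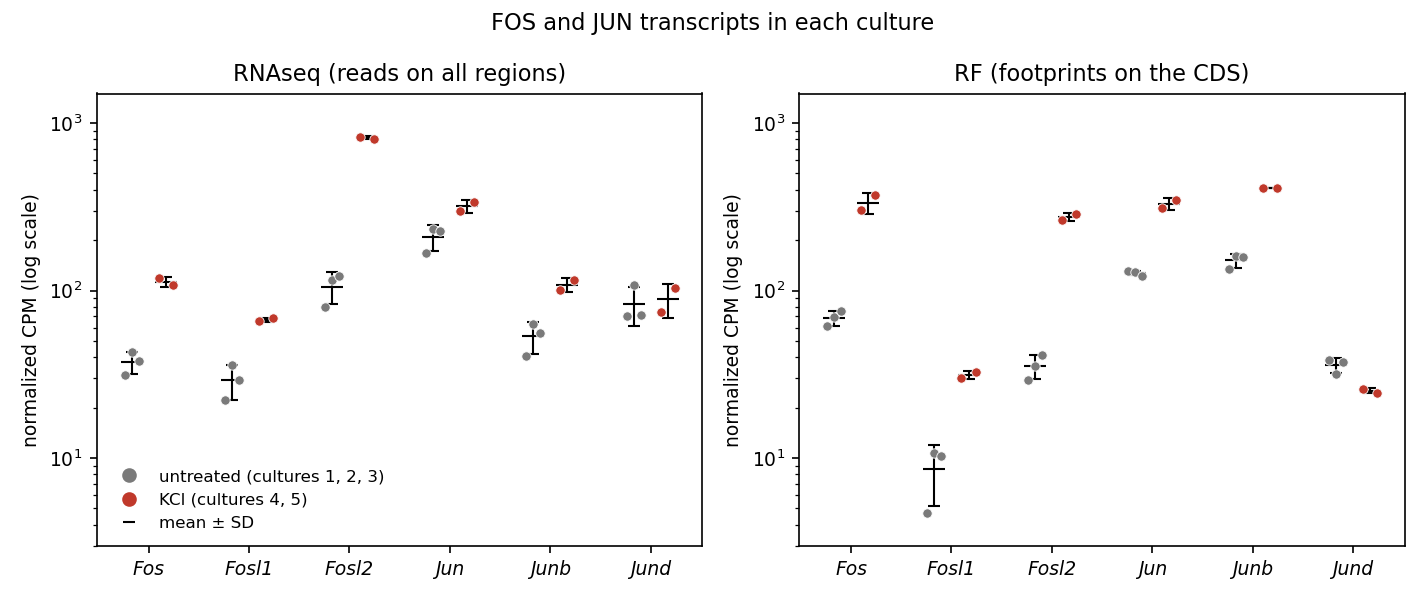
Normalized CPM of each FOS and JUN transcript on a log axis, in RNAseq (left) and RF (right). Each point is a culture, grey for untreated cultures 1 to 3 and red for KCl cultures 4 and 5, and black bars give the mean and SD. The KCl points lie above all untreated points in both panels except for Jund, which overlaps in RNAseq and lies lower in RF.

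Ribosomal occupancy was read from the footprints on the coding sequence (CDS), in the same cultures. Fos footprints measured 61.7, 69.1 and 75.9 normalized CPM in untreated cultures and 301 and 369 after KCl. The rise in RF was 5.02-fold (log2 2.33, SE 0.12, edgeR adjusted p = 3.5e-15). Fosl2 footprints measured 29.4, 35.6 and 41.2 against 265 and 286, a rise of 8.20-fold (log2 3.03, SE 0.13, edgeR adjusted p = 1.5e-16). This was close to its rise in RNAseq. Fosl1 had few footprints, 11 to 53 CDS reads in an untreated library, and measured 4.68, 10.8 and 10.3 normalized CPM against 30.2 and 32.5. Its rise was 3.97-fold with a wider error than for any other member (log2 1.99, SE 0.30, edgeR adjusted p = 6.4e-06).

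Jun and Junb also rose in RF. Jun footprints lay close together in untreated cultures, at 130, 129 and 123 normalized CPM, and reached 309 and 348 after KCl. The rise was 2.58-fold (log2 1.36, SE 0.10, edgeR adjusted p = 1.3e-11). Junb footprints measured 135, 160 and 159 against 410 and 411, a 2.74-fold rise (log2 1.45, SE 0.10, edgeR adjusted p = 2.1e-12).

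Jund went the other way. Its CDS footprints measured 38.3, 31.9 and 37.5 normalized CPM in untreated cultures and 25.8 and 24.6 after KCl, with every KCl value below every untreated one, which holds for 31.0% of measured transcripts. The change was log2 -0.51 (SE 0.20), just inside the threshold (edgeR adjusted p = 0.0485). The call was lost with DESeq2 (adjusted p = 0.18), with TMM or a fit over all 10 libraries, with other low-count filters, when any culture but untreated culture 2 was left out, and when footprints on all regions were counted (log2 -0.14, edgeR adjusted p = 0.71).

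Thus 5 of the 6 transcripts rose in RF, each with both KCl cultures above all untreated ones (30.2% of measured transcripts), and 1 fell, where 41.0% of measured transcripts were called, 20.9% higher and 20.1% lower. The 5 again include Fosl1, which was measured through the KCl cultures alone. The median log2 fold change in RF was 1.72 over the 6 and 1.45 over the 5 without Fosl1, beside -0.0099 over all. The cultures held several cell types, and in such bulk lysates fewer cells of a type and less RNA per cell cannot be told apart.

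**Figure D2:**
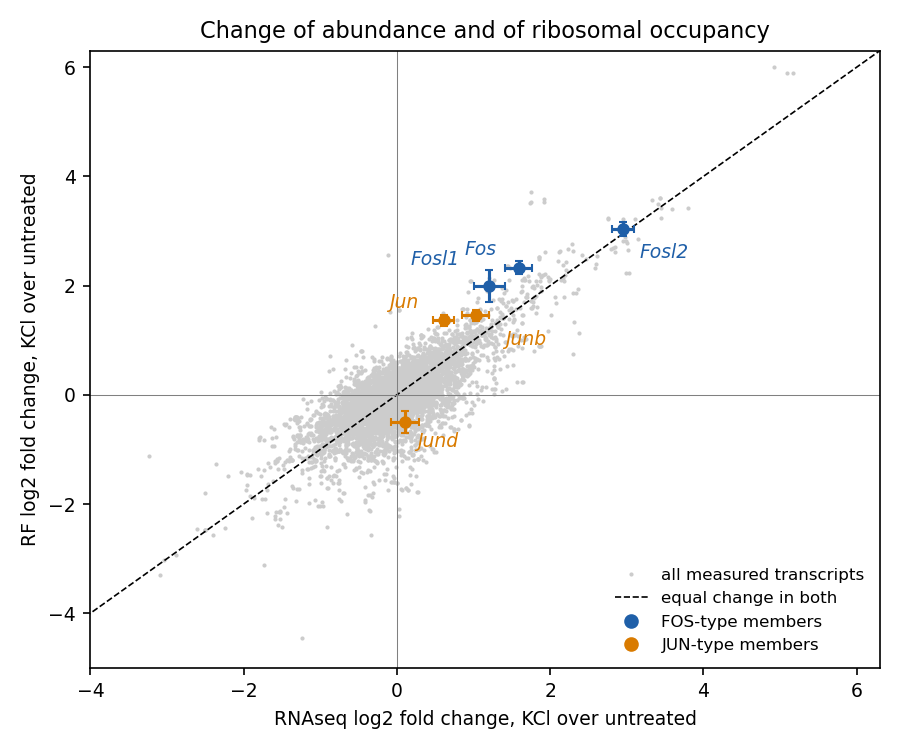
Log2 fold change in RF (vertical) against that in RNAseq (horizontal), KCl over untreated, for the FOS-type members (blue) and JUN-type members (orange) with SE bars, over all 7258 measured transcripts (grey). The dashed line marks equal change. Fosl2 sits on the line at 2.95 and 3.03 (with RNAseq on all regions), while Fos, Fosl1, Jun and Junb sit above it and Jund below it.

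TE, the footprints on the CDS relative to the RNAseq reads of the same culture, tells whether occupancy changed beyond abundance. It was tested as the difference between the RF and the RNAseq change with the culture as a block. Jun gave TE ratios of normalized CPM of 0.777, 0.551 and 0.541 in untreated cultures and 1.03 and 1.02 after KCl. Both KCl ratios exceeded every untreated one, and TE rose 1.66-fold (log2 0.73, SE 0.18, edgeR adjusted p = 0.0030). The size of this change depended on the region counted in RNAseq. With RNAseq reads on the CDS alone it was log2 1.035 (edgeR adjusted p = 0.00103). Without KCl culture 4 or KCl culture 5 the log2 change was 0.73 and 0.74 and the edgeR adjusted p was 0.10 and 0.16.

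Fos gave TE ratios of 1.96, 1.61 and 1.99 in untreated cultures and 2.54 and 3.44 after KCl. The 2 KCl ratios differed from each other by more than the untreated ones did, and both were higher. The rise was 1.63-fold (log2 0.70, SE 0.23, edgeR adjusted p = 0.0389). This call depended on the analysis: the adjusted p was 0.14 with DESeq2, 0.28 when RNAseq reads were counted on the CDS alone, and 0.077 to 0.69 when untreated culture 2 or 3 or either KCl culture was left out. The log2 change was 0.47 to 0.92 in those fits.

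Fosl1 had TE ratios of 0.211, 0.300 and 0.355 against 0.460 and 0.476, and a log2 change of 0.76 that did not pass the test (SE 0.35, edgeR adjusted p = 0.22). Junb had TE ratios of 3.32, 2.53 and 2.84 against 4.07 and 3.53, with a log2 change of 0.40 (SE 0.21, edgeR adjusted p = 0.32). As for Fos and Jun, both KCl ratios of these genes lay above every untreated one, which holds for 15.7% of all measured transcripts. No member had both KCl ratios below, as 18.3% did. Jund had TE ratios of 0.546, 0.296 and 0.526 against 0.345 and 0.238, and the groups overlapped (log2 -0.63, SE 0.29, edgeR adjusted p = 0.22). Without untreated culture 2, the one with the lowest untreated ratio, the Jund change was log2 -0.97 and passed (edgeR adjusted p = 0.030).

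Fosl2 had the TE change nearest to 0. Its ratios of 0.371, 0.309 and 0.336 in untreated cultures and 0.32 and 0.355 after KCl overlapped fully, and its TE change was log2 0.00 (SE 0.13, edgeR adjusted p = 0.996). This value depended on the reads counted: with RNAseq reads on the CDS alone the Fosl2 change was log2 0.43 (edgeR adjusted p = 0.54), beside 0.31 for Junb, 0.58 for Fosl1 and 0.61 for Fos in that fit. Differences in TE change between members were not tested. In TE, 2 of the 6 transcripts rose and none fell, beside 5.79% of measured transcripts called, 1.53% higher and 4.26% lower. The median TE change of the 6 was 0.55, or 0.40 over the 5 without Fosl1, beside 0.0119 over all.

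**Figure D3:**
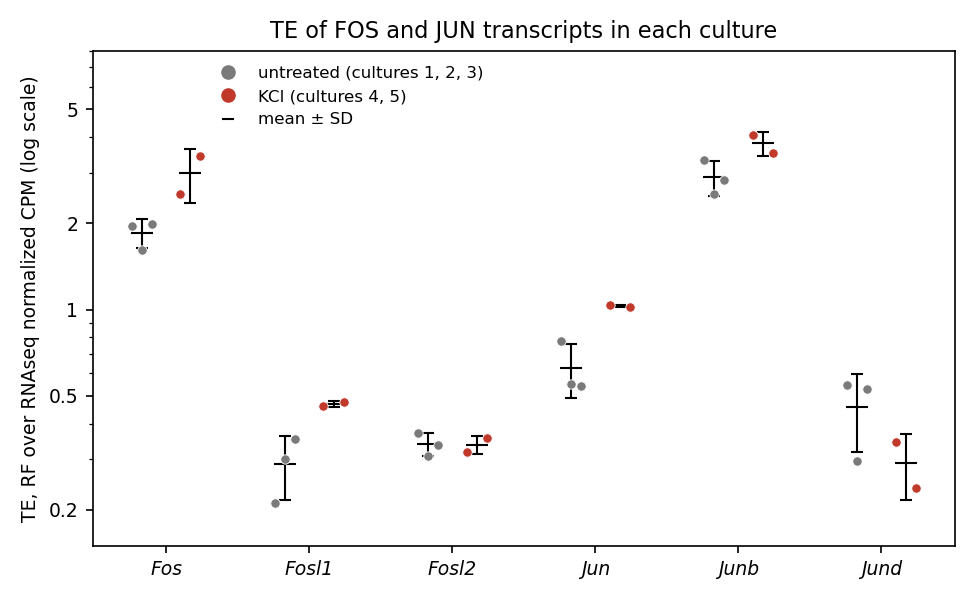
TE of each FOS and JUN transcript per culture, as the ratio of RF to RNAseq normalized CPM on a log axis, with mean and SD in black (3 untreated cultures in grey, 2 KCl cultures in red). Jun rises from 0.541 to 0.777 in untreated cultures to 1.02 and 1.03 after KCl, and Fosl2 stays between 0.309 and 0.371 in all 5.

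To compare levels between the genes, values were taken per length. By RPKM, Jun was the most abundant of the 6 RNAs in every untreated culture (41.4, 58.4 and 56.8), and Fosl2 was among the 3 lowest (9.57, 13.98 and 15.02). After KCl Fosl2 led, at 95.3 and 92.6 RPKM, ahead of Jun at 70.4 and 80.1. In the footprints Junb led in all 5 cultures, at 97.3, 116 and 112 RPKM untreated and 277 and 274 after KCl. In untreated culture 1 it hardly differed from Jun, which measured 96.8 there. The ratio of RF to RNAseq RPKM was 4.19 to 6.62 for Junb, 2.81 to 5.83 for Fos, 1.57 to 3.06 for Jun, 1.95 to 2.35 for Fosl2, 0.45 to 0.99 for Fosl1 and 0.36 to 0.84 for Jund over the 5 cultures. Fosl2 lay above Jun in the untreated cultures (2.345 and 2.34 in culture 1) and below it after KCl. Junb and Fos overlapped in their ranges, as did Jun with Fosl2 and with Fos, and Fosl1 with Jund. These ratios set CDS footprints against RNAseq reads on all regions, and their order depended on that choice. In untreated culture 1 the RNAseq density on the CDS alone was 1.20 for Jund, 6.52 for Junb and 9.33 for Fosl1. Over all regions it was 33.1, 17.6 and 9.38, and the RF RPKM was 27.9, 97.3 and 4.255. Against RNAseq on the CDS alone, Jund thus lay far above Fosl1 in that culture.

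Summed per length, the 3 FOS transcripts made up 25.02%, 24.85% and 26.6% of the family's RNA in untreated cultures and 52.9% and 47.5% after KCl. Their part of the footprint density went from 23.2%, 25.9% and 27.9% to 43.9% and 46.1%. The FOS to JUN ratio of RPKM was therefore 0.331 to 0.362 untreated and 0.905 and 1.12 after KCl in RNAseq, and 0.302 to 0.387 untreated and 0.782 and 0.854 after KCl in RF. The groups did not overlap in either assay. Fosl2 alone went from 7.65 to 9.52% to 27.8 and 30.8% of the summed RNAseq RPKM. These sums hold no Fosb, and they are values per culture with no test. The RNAseq sums take reads on all regions, and their size depended on that choice. In untreated culture 1, RNAseq density on the CDS alone was 1.20 for Jund, 6.52 for Junb and 28.7 for Jun. Over all regions it was 33.1, 17.6 and 41.4. For Fos it was 7.51 against 11.8 and for Fosl1 9.33 against 9.38, while Fosl2 was higher on the CDS. The FOS part of RNAseq was thus larger on the CDS alone in that culture.

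**Figure D4:**
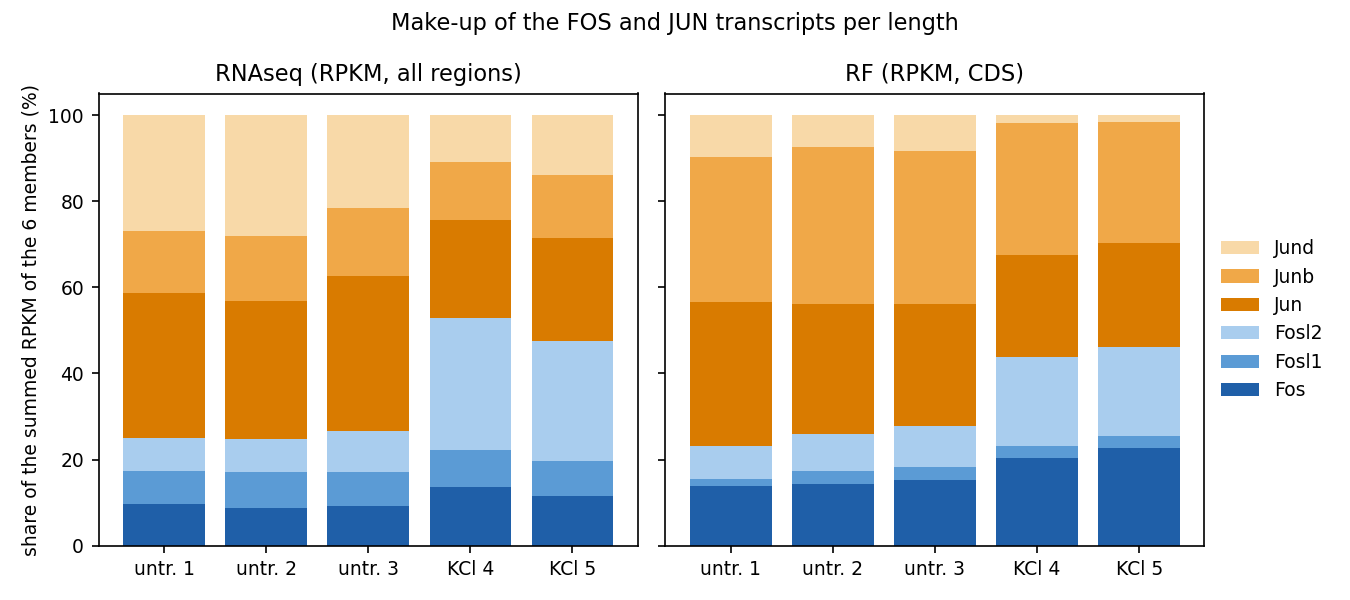
Share of the summed RPKM of the 6 members taken by each gene, per culture, in RNAseq over all regions (left) and in RF on the CDS (right). Blue shades are FOS-type and orange shades JUN-type members. With reads on all regions, the blue part is 24.9 to 26.6% in untreated RNAseq and 47.5 and 52.9% after KCl. These RNAseq shares depend on the regions counted.

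Footprints on the 5′UTR were set against those on the CDS, since ribosomes there are not making the main protein. For TE, the study's methods left out positions just before and after each start and stop codon. Whether the deposited counts leave them out too, and to which region a read spanning a boundary went, is not given in the sources used here. Shares are of 5′UTR and CDS footprints together, with 95% Wilson intervals that cover counting error only. In Jun the 5′UTR held 43.0% (566 reads), 42.6% (472) and 56.8% (172) of these footprints in untreated cultures and 38.2% (215) and 37.1% (441) after KCl. The intervals were 40.3 to 45.7% in untreated culture 1 and 34.4 to 39.8% in KCl culture 5. Both KCl shares lay below every untreated one, although that of KCl culture 4 had an interval of 34.3 to 42.3% that reached into those of untreated cultures 1 and 2, and that of KCl culture 5 just reached the 39.7 to 45.5% of untreated culture 2.

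Fos gave 14.4%, 13.0% and 24.3% untreated and 7.40% and 7.98% after KCl. Its 5′UTR footprints numbered 60, 51 and 26 untreated and 27 and 69 after KCl in libraries of different depth. The interval was 10.1 to 16.7% in untreated culture 2, the lowest untreated one, 6.35 to 9.97% in KCl culture 5, and 5.13 to 10.5% in KCl culture 4, which just reached it. Fosl2 gave 13.3%, 12.5% and 20% against 11.6% and 10.1%. Its intervals overlapped between the groups, for example 8.61 to 17.8% in untreated culture 2 and 8.58 to 15.4% in KCl culture 4. Junb gave 14.1%, 11.4% and 15.4% against 11.4% and 11.6%, with overlapping groups. Fosl1 had only 1 to 3 footprints on its 5′UTR in any library.

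In Fos, Fosl2 and Jun, 3 of the 5 members with a usable number of reads, both KCl shares thus lay below all untreated ones. Of the 1732 transcripts with at least 10 footprints on the 5′UTR in every RF library, 11.3% did so and 17.3% did the opposite. The median share over these 1732 was 13.8%, 11.6% and 18.6% in untreated cultures and 15.2% and 16.3% after KCl, and untreated culture 3, the shallowest RF library, had the highest one. Jun, Fos and Fosl2 also had their highest shares in that culture. Without it the lowest untreated and highest KCl shares of these genes are the same ones, as given above.

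Jund differed. Its 5′UTR share was 17.8% (48 reads) and 12.8% (23) in untreated cultures 1 and 2, and 53.5% (46) in untreated culture 3, against 43.1% (22) and 45.9% (45) after KCl. The groups overlapped through untreated culture 3 alone, whose interval of 43.0 to 63.7% was far from the 13.7 to 22.9% of untreated culture 1. The part of that library in the pattern was not tested. CDS footprints of Jund numbered 221, 157 and 40 untreated and 29 and 53 after KCl.

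**Figure D5:**
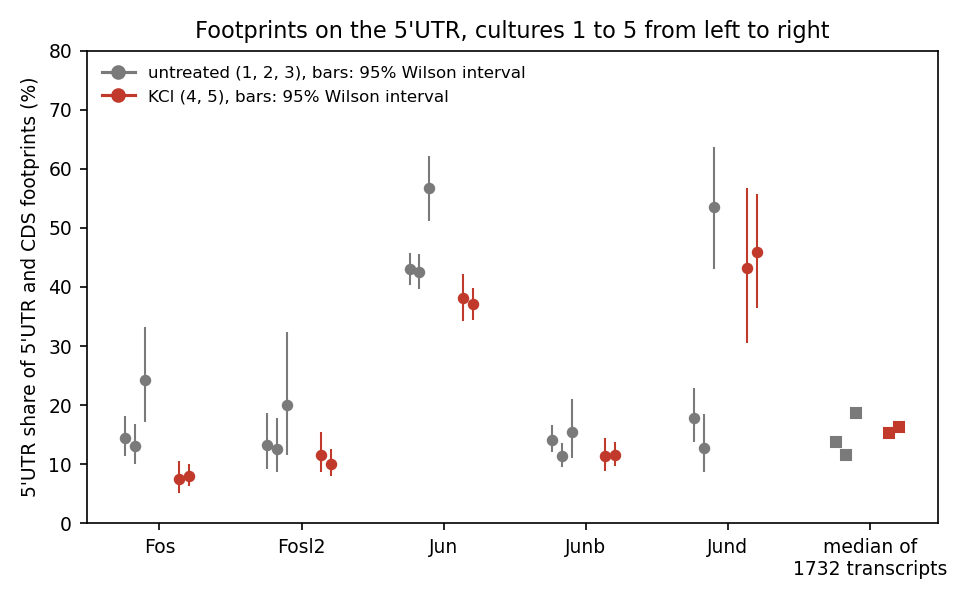
Share of 5′UTR footprints among 5′UTR and CDS footprints (%) in cultures 1 to 5, left to right for each gene, with 95% Wilson intervals, and the median over 1732 transcripts (squares, no error). Grey is untreated and red is KCl. Jun lies at 37.1 and 38.2% after KCl and at 42.6% or more untreated, and Jund splits the untreated cultures.

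The RNAseq reads of Jund were very uneven along the transcript. Its CDS of 1026 bases held 4, 6 and 7 reads in untreated cultures and 2 and 12 after KCl, while its 3′UTR of 533 bases held 163, 254 and 145 and 171 and 258. The density of RNAseq reads on the CDS was 0.0061 to 0.025 of that on the 3′UTR in the 5 cultures, where the median transcript had 0.58 to 0.66. At most 1.44% of transcripts had a lower ratio in any culture. The CDS has a GC content of 70.6%, higher than in 99.7% of measured transcripts (median 53.1%), and the 5′UTR one of 81.7%. Junb, with a CDS of 64.7% GC, also had a low ratio of 0.10 to 0.18, and the other 4 members had ratios of 0.32 to 1.14. The abundance of Jund and its TE thus rested on reads from the 3′UTR, and the part of base composition in these values was not tested.

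The genes that act with or upon AP-1 were taken from named lists, each gene by its transcript with the most RNAseq reads. Their counts can be read against the shares of all measured transcripts, 17.9% higher and 15.1% lower in RNAseq, 20.9% and 20.1% in RF, and 1.53% and 4.26% in TE. Of 8 other leucine zipper partners of FOS and JUN, 3 were measured (Atf2, Atf3 and Atf4) and all 3 rose in RNAseq. Atf3, a stress- and activity-induced partner of JUN, rose in RNAseq by log2 1.79 (SE 0.16) and in RF by 1.95 (SE 0.16). Atf4, the effector of the integrated stress response, had RNAseq levels of 211, 184 and 214 normalized CPM untreated and 890 and 985 after KCl, and rose by log2 2.21 (SE 0.13) in RNAseq and 2.44 (SE 0.18) in RF. Atf2, which pairs with JUN on sites such as that in the Jun promoter, rose by log2 0.41 in RNAseq (SE 0.16, edgeR adjusted p = 0.040), although its KCl value of 134 in culture 5 lay within the untreated range of 103 to 134. Its RF change was log2 -0.10 (SE 0.18) and did not pass. The Atf2 call was lost without untreated culture 2 (log2 0.31, edgeR adjusted p = 0.18) and without KCl culture 4 (log2 0.13, edgeR adjusted p = 0.72). The Atf2 call was also lost with DESeq2 (DESeq2 adjusted p = 0.085) and with library totals in place of TMM (edgeR adjusted p = 0.12). None of the 3 passed the test in TE. The median of the 3 was log2 1.79 in RNAseq and 1.95 in RF.

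Of 24 upstream kinases and transcription factors, 15 were measured, 5 rose in both assays and none fell in either, beside 17.9% of all measured transcripts called higher in RNAseq and 20.9% in RF. The 5 were all nuclear factors. Srf, which acts at the serum response element of the Fos promoter, had RNAseq levels of 47.5, 54.2 and 58.5 normalized CPM untreated and 258 and 268 after KCl. Its footprints went from 16.8, 15.0 and 25.3 to 32.9 and 26.9, so RNAseq rose by log2 2.3 (SE 0.15), RF by 0.75 (SE 0.24), and TE fell by 1.60 (SE 0.28, edgeR adjusted p = 3.4e-06). Srf was the only list gene to pass in TE in this fit, and its TE moved in the opposite direction to that of Jun and Fos.

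The other upstream genes that rose were Ep300, a histone acetyltransferase and coactivator, by log2 0.83 in RNAseq and 0.73 in RF, and the calcium-responsive MEF2 factors. Mef2a rose by log2 0.50 and 0.99, Mef2c by 0.87 and 0.85, and Mef2d by 0.95 and 0.68 in RNAseq and RF. In RNAseq, Mef2c overlapped between groups, with 35.9 to 84.1 normalized CPM untreated and 80.3 and 132 after KCl. Without untreated culture 3 or KCl culture 4, Mef2a and Mef2c no longer passed in RNAseq (log2 0.43 and 0.82, and 0.39 and 0.46), nor did Mef2a without untreated culture 2 (0.43). In RF, Srf no longer passed without untreated culture 1 (0.71), KCl culture 4 (0.63) or KCl culture 5 (0.92), and Mef2d without KCl culture 5 (0.68). With DESeq2, Mef2c no longer passed in RNAseq (DESeq2 adjusted p = 0.21) nor Srf in RF (DESeq2 adjusted p = 0.078). With library totals in place of TMM, Mef2a and Mef2c no longer passed in RNAseq (edgeR adjusted p = 0.062 and 0.0595). The median over the 15 was log2 0.21 in RNAseq and 0.28 in RF.

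Of 10 regulators of AP-1 turnover, 6 were measured. Zfp36, which binds AU-rich elements and hastens mRNA decay, rose by log2 1.25 in RNAseq (SE 0.15) and 1.73 in RF (SE 0.17). Elavl1, which binds such elements and is known to stabilise mRNAs, rose by 0.75 and 0.92. Zfp36l1, a relative of Zfp36, fell by 0.38 on the log2 scale in RNAseq (edgeR adjusted p = 0.032) and had an RF change of -0.21 that did not pass. Its RNAseq call was lost without untreated culture 3, KCl culture 4 or KCl culture 5 (log2 -0.34, -0.42 and -0.35). The Zfp36l1 call was also lost with other low-count filters (edgeR adjusted p = 0.10 and 0.11). None of the 6 passed in TE, and the list's median was log2 -0.03 in RNAseq and -0.06 in RF.

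Of 21 genes known as AP-1 targets, 7 were measured. Hmox1, heme oxygenase, rose by log2 1.26 in RNAseq and 0.93 in RF, and Vegfa, an angiogenic growth factor, by 0.45 and 0.36. Vim, vimentin, rose in RF by 0.29 and had an RNAseq change of 0.04 that did not pass. Ccnd1, cyclin D1, fell by 0.59 and 0.52 on the log2 scale in RNAseq and RF, and Timp1, an inhibitor of metalloproteinases, by 1.17 and 1.36. The smaller of these changes depended on single cultures and on the method. With DESeq2, Vegfa passed in neither assay (DESeq2 adjusted p = 0.059 in RNAseq and 0.12 in RF). With library totals in place of TMM it passed in neither (edgeR adjusted p = 0.081 and 0.20), nor did Vim in RF (edgeR adjusted p = 0.084). Vegfa no longer passed in RNAseq without untreated culture 3 or KCl culture 4 (log2 0.32 and 0.30), or in RF without any culture but untreated culture 3 (0.29 to 0.45). Ccnd1 no longer passed in RNAseq without KCl culture 5 (-0.51) or in RF without KCl culture 4 (-0.39), and Vim in RF without KCl culture 5 (0.27). So 2 rose and 2 fell of the 7 in RNAseq, where 33.0% of all measured transcripts were called. In RF 3 rose and 2 fell, where 41.0% were called, and none passed in TE, where 5.79% were called. The median was log2 0.18 in RNAseq and 0.25 in RF.

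The genes whose pattern was most like each member were found by Pearson r of log2 normalized CPM over the 10 libraries, each centred on the mean of its assay. These points share lysates, and for the members that rose most of their spread is that between KCl and untreated cultures. For Jund the RNAseq values spread within the groups instead, at 70.1 to 108 normalized CPM untreated and 74.8 and 103 after KCl. For Fos they were Rsrp1 (r = 0.997), Slc25a25 (0.995) and Sik1 (0.994), for Fosl2 Ccn1 (0.995), Rbbp6 (0.995) and Sertad2 (0.994), and for Fosl1 Eif3h (0.979), Nup50 (0.977) and Rbm39 (0.972). For Jun they were Sparc (0.994), Zbtb7a (0.985) and Slc25a25 (0.979), and for Junb Ier3 (0.993), Myc (0.987) and Enoph1 (0.986). Jund had no close match, its nearest being Ptprs (0.926), Smox (0.916) and Ptprf (0.915). A high r does not mean a change of like size. Sparc changed by log2 0.19 in RNAseq and 0.34 in RF, beside 0.61 and 1.36 for Jun. Rsrp1 changed by 1.59 and 2.37, beside 1.59 and 2.33 for Fos. Slc25a25 stands for different transcripts under Fos and Jun (RNAseq log2 1.39 and 1.19).

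The cell types of the cultures were checked with marker lists. Summed RNAseq levels of 8 measured astrocyte markers, of 8, were 13320 to 14140 normalized CPM untreated and 11280 to 11550 after KCl, with 3 lower, while in RF the sums were 18880 to 19560 and 20470 to 20870, with 4 higher. Of 8 neuronal markers 5 were measured, with RNAseq sums of 609 to 857 untreated and 723 to 755 after KCl and none called, and RF sums of 404 to 604 and 584 to 663 with 1 higher. Of 6 microglial markers 2 were measured, with RNAseq sums of 138 to 156 and 121 to 127 and none called, and RF sums of 203 to 223 and 240 to 271 with 1 higher. Of 7 oligodendrocyte lineage markers 5 were measured, with RNAseq sums of 1172 to 1328 and 1123 to 1126 with 1 lower, and RF sums of 1010 to 1109 and 1063 to 1174 with 1 higher and 1 lower. None of 3 endothelial markers was measured. Of 4 fibroblast markers 2 were measured, with RNAseq sums of 526 to 637 and 445 to 509 with 1 lower, and RF sums of 1097 to 1479 and 660 to 810 with 1 higher and 1 lower. Of all measured transcripts, 17.9% were called higher and 15.1% lower in RNAseq, and 20.9% and 20.1% in RF. Gfap had the most RNAseq reads of the astrocyte markers, with a maximum of 17964 beside 6354 for Slc1a2, the next. The astrocyte RNAseq sums thus weigh Gfap most. The part of the marker shifts in the AP-1 values was not tested.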

How the data were processed

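RNAseq and RF were made from the same lysate of each of 5 cultures, 3 untreated and 2 with KCl. Per the study's methods and the submitters' processing notes, the authors trimmed reads with Trimmomatic 0.32, removed ribosomal RNA with STAR 2.3.1z8, aligned with Bowtie2 2.2.2 to mm10 transcripts, keeping reads that map to several transcripts, and counted them per transcript region with bedtools 2.20.1. The deposited values are raw read counts per region (5′UTR, CDS, 3′UTR and a region that the sources do not name), and regions with no reads are not listed. For TE the study left out positions around start and stop codons, which was not repeated here. The study removed another KCl culture for low library size.

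Of 22534 listed transcripts, 98.4% were matched to GENCODE vM21 (GRCm38). Transcripts with an RPKM of at least 10 in RNAseq and RF of the same culture, in at least 2 cultures, were measured. Raw counts were tested with edgeR 4.0.16 (quasi-likelihood, robust, TMM within each assay, R 4.3.3), with Benjamini-Hochberg adjustment over 7258 transcripts and a threshold of 0.05. RNAseq used reads on all regions, and RF those on the CDS. TE was the interaction of assay and treatment over 10 libraries with the culture as a block, because both libraries of a culture come from 1 lysate. Deviations of the 2 libraries of a culture correlated with r of -0.0739 to 0.0666. The SE was the log2 fold change over the square root of F, an approximation that is unreliable for changes near 0, such as that of Fosl2 in TE. All replicate pairs differed beyond sampling noise. The code was tested on simulated data.

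The members and gene lists were chosen with earlier results of these data known. Named genes were all members, every list gene called in at least 1 assay and the 3 genes most like each member. DESeq2 1.42.0, other scalings and filters, leaving out each culture and, for RF and TE only, other counted regions were alternatives.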

Additional observations from a re-analysis of the deposited data

How the results depend on the processing

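With 2 KCl cultures the precision was limited most in TE. In every alternative that kept both KCl cultures, the members called in RNAseq numbered 5, and those in RF 5 or 6, the difference being Jund. No alternative changed the regions counted for the RNAseq test. The members called in TE numbered 2 in the reported analysis and 2 without the replicate block, and 1, Jun, with library totals in place of TMM, with DESeq2, with edgeR's own low-count filter, with no filter, and with RNAseq reads on the CDS. Leaving out 1 culture gave 0 to 2, with 0 when either KCl culture was left out. The cause was not tested. Fos TE had an adjusted p of 0.060 with library totals, 0.063 with edgeR's own filter and 0.079 with no filter. Fosl2 TE turned to log2 -0.037 with library totals and -0.013 with 1 transcript per gene. It was -0.081 without untreated culture 2 and -0.078 without KCl culture 5, and ranged up to 0.094 without 1 culture. With RNAseq reads on the CDS it was 0.43 and did not pass. Jund RNAseq turned to -0.008 without untreated culture 1 and -0.15 without KCl culture 5, and ranged up to 0.34 without 1 culture.

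Library totals moved the median of all transcripts by more than 0.1 in RF (to log2 -0.14; RNAseq -0.098) and the calls from 1298 higher and 1095 lower to 1050 and 1533 in RNAseq, and from 1515 and 1459 to 1073 and 2108 in RF. In all, 2393 (RNAseq), 2974 (RF) and 420 (TE) transcripts were called. With edgeR's own filter these were 4192, 5336 and 425, without a filter 4141, 5311 and 393, with 1 transcript per gene 1439, 1738 and 264, and with DESeq2 2095, 2224 and 179. RNAseq reads on the CDS gave 265 in TE. Leaving out 1 culture gave 1634 to 2634, 1698 to 3233 and 70 to 546.

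In the lists, upstream genes called in RNAseq numbered 5, and 3 to 6 without 1 culture, and in RF 5, and 3 to 8. Upstream genes in TE numbered 1, and 1 to 2 without 1 culture, and 2 with RNAseq reads on the CDS. Target genes in RF numbered 5, 3 with library totals and 3 to 5 without 1 culture.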
